A study of Sus scrofa with 15 samples.

Results

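AP-1 and other immediate early genes were examined in the liver RNA of piglets given lipopolysaccharide (LPS, a bacterial endotoxin) or saline. The members were 10 genes taken by their pig Ensembl symbol, namely FOS, FOSB, FOSL2, JUN, JUNB, JUND, ATF3, EGR1, IER3 and MYC. Of these, 9 have a row among the 31908 genes of the deposited count table, 15029 of which carry a symbol in the list of gene names used here, and JUND was not analysed here because no identifier is paired with that symbol. All piglets were male Duroc x Large White x Landrace animals. The CON group had received sterile saline and the LPS group 80 μg/kg of LPS by intraperitoneal injection, and the liver of both groups was taken 4 h later. Each group gave 3 libraries, which were the input fraction of an m6A RNA immunoprecipitation experiment, that is, fragmented polyadenylated RNA of whole liver set aside before the antibody was added. The sources used here give neither ages nor which piglet gave which library, so p-values measure the spread between these libraries.

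Immediate early genes are transcribed within minutes of a stimulus, by transcription factors that are already present in the cell and without new protein synthesis, and their mRNAs and proteins are short-lived. FOS, JUN and ATF family proteins form the dimers called AP-1, which bind AP-1 and CRE elements in the promoters and enhancers of later genes. In the liver these genes are known for their quick response to endotoxin, cytokines, growth factors, tissue injury and handling of the organ. Single time points catch such genes at 1 moment only, and in bulk tissue fewer cells of a type and less RNA per cell cannot be told apart.

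The CON libraries held between 5927348 and 10351491 counts and the LPS libraries between 4348478 and 19967417, LPS replicate 3 being the deepest. Levels are given as CPM (counts scaled to a common library size) after TMM scaling, in which LPS replicate 3 had a factor of 0.735 and the other libraries 0.979 to 1.11. The LPS libraries were less alike than the CON libraries, with correlations of log2 CPM over genes of 0.943 to 0.953 among CON pairs and of 0.853 between LPS replicates 2 and 3. LPS replicate 2 correlated with the CON libraries at 0.923 to 0.945 and LPS replicate 3 at 0.837 to 0.875. Results of the tested members are therefore also given without LPS replicate 2 or 3, and those of other genes where a fold change is given and its call changes. These 2 libraries were picked from the same values, LPS replicate 2 being the LPS library most like CON. Calls made without it are not independent of that choice. Genes called higher and lower were 7 and 0 with all libraries and 512 and 470 without LPS replicate 2. The liver marker albumin (ALB) was abundant throughout, lying between 12380 and 38010 CPM.

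With all 6 libraries no member passed the test in either direction, whereas 7 of 12774 tested genes (0.0548%) were called higher in the LPS group (edgeR quasi-likelihood test, with a Benjamini-Hochberg adjusted p under 0.05 and more than 1.5-fold). The members nevertheless had a common shape. FOS, FOSL2, JUN, JUNB, ATF3, IER3 and MYC all had their highest level in LPS replicate 3, which was true of 7 of the 8 tested members and of 27.2% of tested genes. In 6 of the 8 (FOS, FOSL2, JUN, ATF3, IER3 and MYC) that library was more than 2 times the next highest, against 4.05% of tested genes. LPS replicate 2 lay on the other side, since it was below every CON library for FOS, JUN, JUNB, ATF3, IER3 and MYC, 6 of 8 members against 26.5% of tested genes. No member had every LPS value above every CON value (6.52% of tested genes) or every LPS value below (9.8%).

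**Figure D1:**
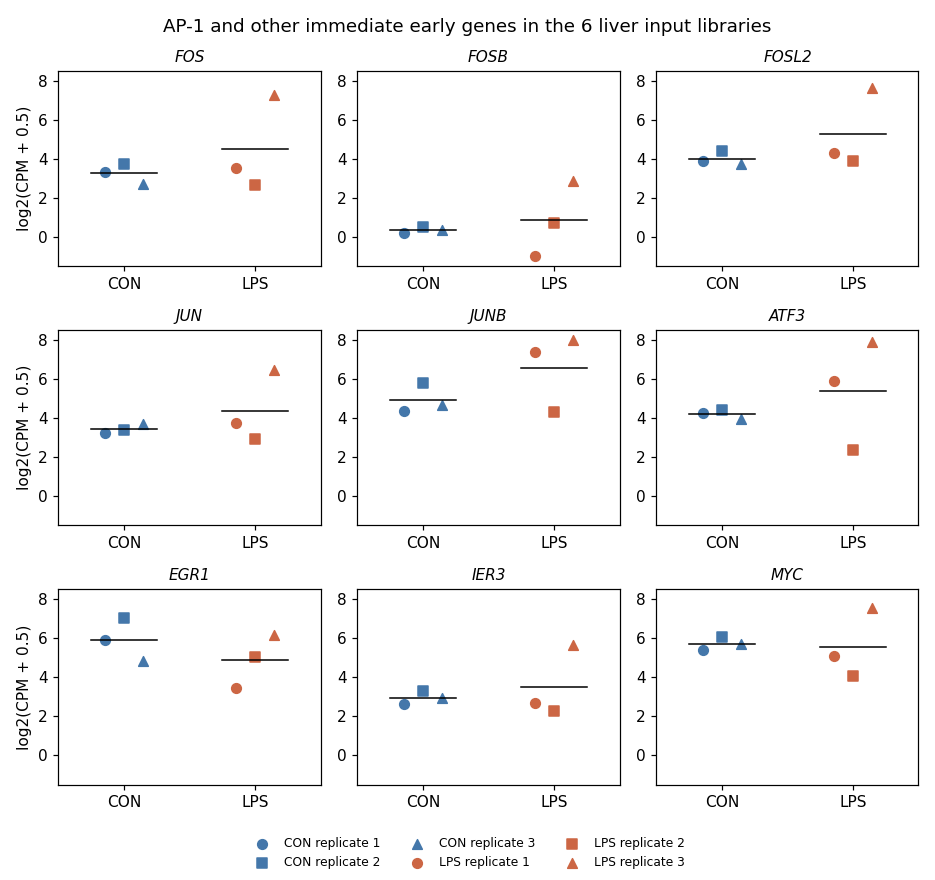
Level of each of the 9 genes in each library, as log2(CPM + 0.5) on the vertical axis, for CON (blue) and LPS (orange) replicates 1 (circle), 2 (square) and 3 (triangle), with the group mean as a black line. LPS replicate 3 is the highest point for every gene but EGR1, where CON replicate 2 is highest, and JUNB and ATF3 are also high in LPS replicate 1.

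FOS encodes the founding member of the FOS family, which binds DNA only as a dimer with a JUN protein. It lies on chromosome 7 at 98449349 to 98455554 (plus strand, ENSSSCG00000002383, coordinates of the deposited table). FOS was at 9.38, 12.7 and 6.13 CPM in CON replicates 1, 2 and 3 and at 11.1, 5.73 and 152 CPM in LPS replicates 1, 2 and 3. The first 2 LPS libraries thus sat within or just under the CON range, and LPS replicate 3 was 16.2 times the CON mean and 12.0 times the next highest library. The group means were 9.39 ± 3.26 CPM in CON and 56.2 ± 82.8 CPM in LPS (SD, n = 3 each). The fitted log2 fold change was 2.60 with an SE of 1.05 (edgeR adjusted p = 0.363), which became 3.14 without LPS replicate 2 (adjusted p = 0.0843) and was −0.14 once LPS replicate 3 was left out (adjusted p = 0.930).

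FOSL2 encodes Fra-2, a FOS family protein that lacks the strong activation domain of FOS. The gene is on chromosome 3 at 110823666 to 110843068 (minus strand, ENSSSCG00000032527). Its levels were 14.0, 20.2 and 12.6 CPM in CON and 19.0, 14.4 and 195 CPM in LPS. Both LPS replicates 1 and 2 fell inside the CON range, and LPS replicate 3 was 12.5 times the CON mean. This gave a log2 fold change of 2.30 with an SE of 0.89 (edgeR adjusted p = 0.350). It became 2.80 when LPS replicate 2 was left out (adjusted p = 0.0698) and 0.12 when LPS replicate 3 was (adjusted p = 0.929). FOS and FOSL2 were the most alike pair of members, with a Pearson correlation of log2 CPM of 0.990 over the 6 libraries and of 0.849 over the 5 without LPS replicate 3.

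FOSB, a further FOS family member, was close to the limit of detection and did not pass the filter on low counts. Its locus is on chromosome 6 at 51837719 to 51844531 (plus strand, ENSSSCG00000031616). Counts were 7, 6 and 8 in CON and 0, 7 and 100 in LPS. In CPM the CON libraries were at 0.626, 0.937 and 0.791. The 0 in LPS replicate 1 allows a level of up to 0.804 CPM (exact Poisson 95% upper bound), which is above CON replicates 1 and 3 and under CON replicate 2. LPS replicate 3 stood at 6.83 CPM with an exact Poisson 95% counting interval of 5.55 to 8.30, above the upper bounds of the CON libraries, of which the highest was 2.04 CPM. These bounds cover counting error only.

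JUN encodes c-Jun, the partner with which FOS proteins pair most often in textbook AP-1. It lies on chromosome 6 at 153685682 to 153687656 (plus strand, ENSSSCG00000031912). JUN was at 8.94, 9.84 and 12.4 CPM in CON and at 13.1, 7.03 and 85.8 CPM in LPS. LPS replicate 3 was 8.26 times the CON mean, LPS replicate 1 was just over the CON range and LPS replicate 2 just under it. The log2 fold change was 1.78 with an SE of 0.80 (edgeR adjusted p = 0.406), then 2.27 without LPS replicate 2 (adjusted p = 0.0545) and was −0.040 once LPS replicate 3 was left out (adjusted p = 0.977). An unnamed gene on the opposite strand shares 1738 exon bases with JUN in the table, and it had 0 counts in all 6 libraries.

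JUNB encodes a JUN family protein that is a weaker activator than c-Jun in many settings. It is a gene with 1 exon block on chromosome 2 at 66214594 to 66215637 (minus strand, ENSSSCG00000013735). JUNB was at 19.9, 55.3 and 24.9 CPM in CON and at 168, 19.0 and 250.3 CPM in LPS. Here 2 LPS libraries were high, LPS replicate 1 at 5.04 times and LPS replicate 3 at 7.50 times the CON mean, while LPS replicate 2 was at 0.569 times it. The log2 fold change was 2.13 with an SE of 0.79 (edgeR adjusted p = 0.329). Without LPS replicate 2, JUNB was called higher, with a log2 fold change of 2.66, an SE of 0.46 and an adjusted p of 0.00775 in edgeR. Without LPS replicate 3 the log2 fold change was 1.51 and the edgeR adjusted p was 0.582.

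JUNB shares 331 exon bases with HOOK2, which is read from the opposite strand, and the sources used here do not say whether strand was used in counting. HOOK2, which encodes a linker of cargo to microtubules, was at 12.1, 27.7 and 13.7 CPM in CON and at 82.4, 15.4 and 67.9 CPM in LPS (log2 fold change 1.64, edgeR adjusted p = 0.307), and it was called higher without LPS replicate 2 (2.09, adjusted p = 0.0133). Both genes were therefore above their CON libraries in LPS replicates 1 and 3, and in LPS replicate 2 HOOK2 was within its CON range and JUNB just under its own. The ratio of JUNB to HOOK2 CPM was 1.65, 2.00 and 1.81 in CON and 2.04, 1.23 and 3.68 in LPS, so the JUNB counts moved further than those of HOOK2 in LPS replicate 3. How many reads of one were counted on the other was not tested.

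ATF3 encodes a stress-induced member of the ATF/CREB family that can pair with JUN proteins and often acts as a repressor. In macrophages it is known to restrain Toll-like receptor responses. The gene is on chromosome 9 at 130770428 to 130787462 (minus strand, ENSSSCG00000015595). ATF3 was at 18.5, 20.9 and 14.9 CPM in CON and at 59.3, 4.58 and 232 CPM in LPS. It had the widest spread among LPS libraries of the tested members, the highest being 50.7 times the lowest, against 1.40 times in CON. LPS replicates 1 and 3 were 3.27 and 12.8 times the CON mean, and LPS replicate 2 was at 0.253 times it. The log2 fold change was 2.45 with an SE of 0.99 (edgeR adjusted p = 0.363). Without LPS replicate 2, ATF3 was called higher, with a log2 fold change of 3.02, an SE of 0.51 and an edgeR adjusted p of 0.00723. Without LPS replicate 3 it had a log2 fold change of 0.83 (edgeR adjusted p = 0.782).

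EGR1 encodes a zinc finger factor that is usually induced together with FOS. Here it had another order of libraries than FOS. EGR1 (chromosome 2, 140441421 to 140445296, plus strand, ENSSSCG00000014336) was at 59.3, 129 and 28.1 CPM in CON and at 10.3, 32.4 and 71.5 CPM in LPS. Its lowest library was LPS replicate 1, at 0.142 times the CON mean, and its highest was CON replicate 2, while LPS replicate 3 was at 0.990 times the CON mean. CON libraries themselves spread 4.61-fold, compared with 1.38- to 2.78-fold for the other tested members, so the groups overlapped. EGR1 had a log2 fold change of −0.91 with an SE of 0.70 (edgeR adjusted p = 0.633). It was −0.79 without LPS replicate 2 (adjusted p = 0.623) and −1.73 when LPS replicate 3 was left out (adjusted p = 0.418). Relative to EGR1, FOS was at 0.158, 0.0978 and 0.218 (ratio of CPM) in CON and at 1.09, 0.177 and 2.12 in LPS. LPS replicates 1 and 3 were thus above the CON range of this ratio and LPS replicate 2 was within it, a comparison chosen after the values were seen.

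IER3 encodes a short-lived regulator of cell survival that binds ERK kinases. It lies on chromosome 7 at 23265562 to 23267042 (minus strand, ENSSSCG00000027607). IER3 was at 5.72, 9.37 and 7.02 CPM in CON and at 5.89, 4.25 and 49.2 CPM in LPS. As with FOS, only LPS replicate 3 was above the CON libraries, at 6.67 times their mean. IER3 had a log2 fold change of 1.46 with an SE of 0.82 (edgeR adjusted p = 0.506), then 1.94 without LPS replicate 2 (adjusted p = 0.123) and was −0.52 once LPS replicate 3 was left out (adjusted p = 0.683). FLOT1, a gene 456 bases away on the same strand, had the pattern across libraries most like that of IER3 (r = 0.994 over 6 libraries), and whether reads of the 2 genes were mixed was not tested.

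MYC encodes a transcription factor that drives growth and ribosome production. Its locus is on chromosome 4 at 12455119 to 12461078 (minus strand, ENSSSCG00000005965). MYC was at 41.2, 65.8 and 51.5 CPM in CON and at 33.6, 16.4 and 184.5 CPM in LPS. LPS replicates 1 and 2 were both below every CON library and LPS replicate 3 was above all of them, at 3.49 times the CON mean. The log2 fold change was 0.57 with an SE of 0.75 (edgeR adjusted p = 0.788) with all libraries, 1.06 without LPS replicate 2 (adjusted p = 0.297) and was −1.07 once LPS replicate 3 was left out (unadjusted p = 0.0188, adjusted p = 0.313). Set against JUNB, MYC was lower in each LPS library, the ratio of CPM being 2.07, 1.19 and 2.07 in CON and 0.20, 0.862 and 0.737 in LPS. This ratio was singled out after its values were seen, so it is given with no test.

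Over the 8 tested members, the median log2 fold change was 1.96 with all libraries, compared with 0.01 over all tested genes. It was 2.46 without LPS replicate 2 and −0.09 without LPS replicate 3, against −0.02 and −0.03 over all genes. Scaling to total counts shifted the median of all genes to −0.12 and that of the members to 1.63. At an unadjusted edgeR p below 0.05, FOS, FOSL2, JUNB and ATF3 were higher, 4 of 8 members compared with 6.18% of tested genes, and no member was lower. Without LPS replicate 2, JUNB and ATF3 were called higher, 2 of 9 members against 3.76% of genes, and without LPS replicate 3 none of 8 was called (0.31% of genes called higher).

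The number of members called depended on the filter and the tool. With no filter on low counts edgeR called FOS, FOSL2, JUN, JUNB, ATF3 and IER3 higher, 6 of 9 members, against 2.28% of 23529 genes. Their log2 fold changes there, 1.43 to 2.58, were close to those with the filter, and their standard errors were about 0.41 to 0.42, compared with 0.79 to 1.05 with the filter. DESeq2 called JUNB higher (log2 fold change 2.17, adjusted p = 0.0474), 1 of the 6 members with an adjusted p, against 1.85% of genes. It gave no p for FOS, FOSL2 and IER3, whose largest Cook's distances, 19.0 to 22.3, were all in LPS replicate 3 and above its limit of 18.0 for a count far from the others of its group.

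**Figure D2:**
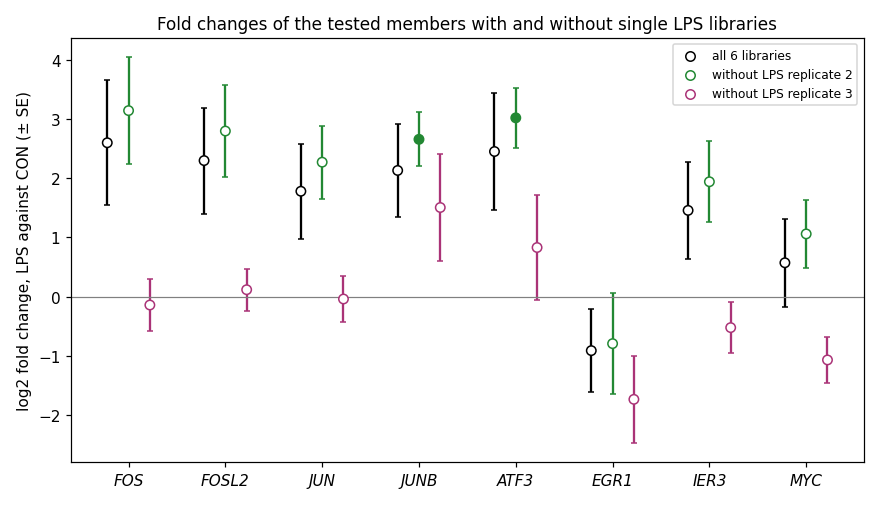
Log2 fold change of LPS against CON (vertical axis) with its SE for the 8 tested members, with all 6 libraries (black), without LPS replicate 2 (green) and without LPS replicate 3 (purple). Filled points, JUNB and ATF3 without LPS replicate 2, were called, and open points were not.

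To compare levels between genes, counts were divided by gene length and scaled to a common sum per library (TPM). In CON livers the order of mean TPM was JUNB (66.8 ± 49.9, SD, n = 3), EGR1 (50.7 ± 43.1), MYC (32.8 ± 13.0), FOSL2 (13.0 ± 5.9), IER3 (10.7 ± 4.5), JUN (10.6 ± 1.4), ATF3 (5.24 ± 1.95), FOS (3.99 ± 2.10) and FOSB (0.413 ± 0.146). The CON ranges of JUNB, EGR1 and MYC overlapped, as did those of FOSL2, IER3 and JUN and those of ATF3 and FOS, while MYC was above FOSL2, JUN above ATF3 and FOS above FOSB in all 3 CON libraries. This order depends on the gene lengths of the table, which were 1044 bases for JUNB, 3103 for EGR1, 3237 for MYC and 7053 for ATF3. Of the JUNB bases 331 are shared with HOOK2. By CON mean CPM, EGR1 (72.2) and MYC (52.8) were above JUNB (33.4). In TPM, JUNB was highest in each LPS library, with a mean of 239 ± 178 TPM. The gene after it was MYC in LPS replicate 1 (24.9 TPM), EGR1 in LPS replicate 2 (23.3 TPM) and FOSL2 in LPS replicate 3 (94.9 TPM), so the order below JUNB was not shared by the LPS libraries.

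The summed TPM of the 6 AP-1 subunit genes measured (FOS, FOSB, FOSL2, JUN, JUNB and ATF3) was 73.2, 169 and 57.6 in CON and 447, 66.6 and 517 in LPS. LPS replicates 1 and 3 were therefore above all CON libraries, and LPS replicate 2 was among them. The make-up of that sum, which rests on the same gene lengths and overlap with HOOK2, differed between the 2 high libraries. JUNB held 86.5% of it in LPS replicate 1 and 55.9% in LPS replicate 3, compared with 55.9% to 73.5% in CON and 61.0% in LPS replicate 2. The ratio of JUNB to JUN CPM was 12.9 in LPS replicate 1, against 2.02 to 5.62 in CON and 2.70 and 2.92 in LPS replicates 2 and 3. TPM is scaled to the length-weighted sum of each library and takes no TMM factor, so comparisons between libraries can differ from those in CPM. By TPM the JUNB level was higher in LPS replicate 1, at 387, than in LPS replicate 3, at 289, the reverse of their order in CPM. LPS replicate 1 was thus the library in which JUNB stood out from the other subunits, and LPS replicate 3 the one in which FOS, FOSL2, JUN and ATF3 were also at their highest.

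**Figure D3:**
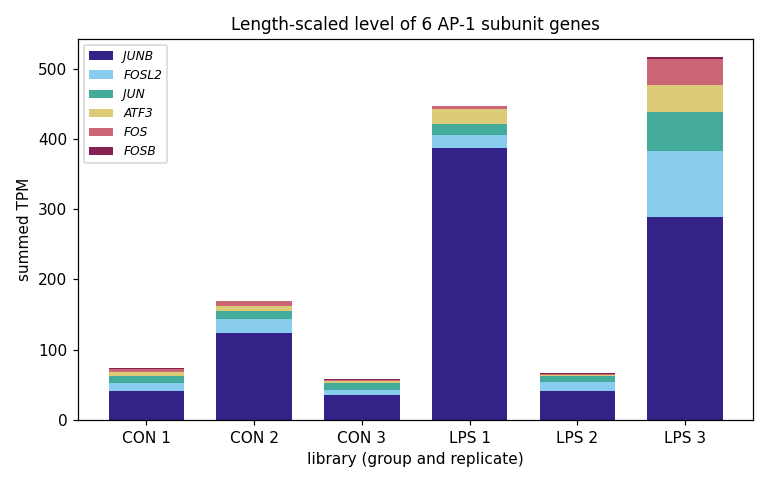
Stacked bars of the TPM (no TMM factor) of 6 AP-1 subunit genes in each library, starting at 0. The bars of LPS replicates 1 and 3 reach 447 and 517 TPM, and the bar of LPS replicate 1 is mostly JUNB.

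The likeness of the members across libraries was measured by Pearson's r of log2 CPM over the 6 libraries, as a description, since the points share their libraries and 1 library is far from the rest. JUNB was most like ATF3 (r = 0.916, and 0.847 without LPS replicate 3), JUN most like IER3 (0.964, and 0.494 without it), IER3 most like FOS (0.972, and 0.609) and MYC most like IER3 (0.933, and 0.943). The JUN pairing therefore rested largely on LPS replicate 3. EGR1 was the least like every other tested member over the 6 libraries, its highest value being 0.503 with MYC (0.462 without LPS replicate 3), but without LPS replicate 3 its value with IER3 was 0.524, above that of JUN with IER3. Among all tested genes with a symbol, the closest to FOS were MAFF (r = 0.993), TBC1D9 and TSPAN14, and the closest to FOSL2 were TSPAN14 (0.998), BCL2A1 and POGK. For JUN they were DUSP5 (0.997), PTBP1 and ACTN1, for JUNB RPS12 (0.994) and KHSRP, and for ATF3 STAT3 (0.991), SOCS7 and NUP93. Those of EGR1 were CLASP1 (0.994), AHSG and TCP11L2, those of IER3 after FLOT1 were DNAJB12 and PLAUR, and those of MYC were CD83 (0.994), NDE1 and REV1.

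Genes that work with the members were described by lists written from general knowledge, with counts and medians only. With all 6 libraries and the filter, edgeR called no gene of the 8 lists. DESeq2 and edgeR without the filter did call some. DESeq2 called 2 of 34 other immediate early genes and 3 of 20 AP-1 targets higher, against 1.85% of all genes. With no filter edgeR called 13 of 38 and 11 of 23 higher, against 2.28%. In each of these fits 1 AP-1 target and 0 of the other immediate early genes were called lower, against 141 of 14829 and 349 of 23529 genes. The counts without LPS replicate 2 that follow stand against 3.76% of all genes called higher and 3.45% called lower in that fit. A further list held AP-1 dimer partners outside the members together with related ATF, CREB and MAF family genes, not all of them partners of FOS or JUN. Of these, 13 of 19 were tested, 8 with a log2 fold change above 0 and a median of 0.11, and without LPS replicate 2 they included 2 of 14 called higher and 1 called lower. Their median was −0.09 without LPS replicate 3, with none called. BATF3, a partner of JUN proteins best known in dendritic cells, was at 19.3, 28.9 and 25.9 CPM in CON and at 312, 56.8 and 523 CPM in LPS (log2 fold change 3.59, SE 0.70, edgeR adjusted p = 0.100), and was called without LPS replicate 2 (4.09, adjusted p = 0.000472). All 3 LPS libraries were above all CON libraries for BATF3, LPS replicate 2 included, which none of the members showed. ATF5, an ATF family gene abundant in liver, was at 1451, 2967 and 2228 CPM in CON and at 468, 1367 and 189 CPM in LPS (log2 fold change −1.72, edgeR adjusted p = 0.330), with every LPS library under the CON range, and was called lower without LPS replicate 2 (−2.75, adjusted p = 0.0131). CREB3L3 and MAF had log2 fold changes of −0.35 and 0.33 (edgeR adjusted p = 0.767 and 0.782).

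FOSL1 encodes Fra-1, a FOS family protein, and was singled out after its values were seen. Its counts were 1, 2 and 0 in CON and 7, 2 and 205 in LPS, so it was nearly all from LPS replicate 3. With all libraries it did not pass the filter, and it was called higher by DESeq2 (adjusted p = 0.00179) and by edgeR with no filter (adjusted p = 5.0e-09). It was also called higher without LPS replicate 2 (edgeR adjusted p = 0.0121). There FOSL1 passed the filter only through the LPS libraries, where it is high, so that call is not independent of the filter. It was not called without CON replicate 2 (adjusted p = 0.493) or, with no filter, without LPS replicate 3 (edgeR adjusted p = 0.408).

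Other immediate early genes leaned the same way as the members. Of the 36 tested of 40, 30 had a log2 fold change above 0, the median was 1.06, and 27 had their highest level in LPS replicate 3, as 27.2% of all tested genes did. Without LPS replicate 2, 11 of 36 were called higher and none lower, and without LPS replicate 3 none of 35 was called and the median was 0.40. CEBPD, which encodes an acute phase transcription factor, was at 193, 371 and 330 CPM in CON and at 1348, 207 and 737 CPM in LPS (log2 fold change 1.36, edgeR adjusted p = 0.385). CEBPB, its relative, had a log2 fold change of 1.20 (edgeR adjusted p = 0.353). CEBPD and CEBPB were called higher without LPS replicate 2, with log2 fold changes of 1.81 and 1.58 (edgeR adjusted p = 0.0259 and 0.0308). ZFP36, which encodes an mRNA decay factor, was at 42.3, 67.0 and 62.6 CPM in CON and at 224, 29.8 and 864 CPM in LPS, and SOCS3, an inhibitor of cytokine receptor signalling, was at 17.5, 45.2 and 27.6 CPM in CON and at 289, 18.8 and 627 CPM in LPS. ZFP36 and SOCS3 had the same order of LPS libraries as ATF3 and JUNB, replicate 3 highest and replicate 2 lowest, with log2 fold changes of 2.70 and 3.38 (edgeR adjusted p = 0.291 and 0.230). Both were called without LPS replicate 2, at 3.25 and 3.94 (edgeR adjusted p = 0.00618 and 0.00184).

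The MAP kinase cascade and the ternary complex factors, which carry the signal to the FOS and EGR1 promoters, had a median log2 fold change of 0.07 over 34 tested genes, 21 above 0 and 13 below, and none was called without LPS replicate 2 either. MAP2K2, HRAS, MAP2K7 and MAP3K11 had log2 fold changes of 0.18, 0.67, −0.01 and 0.43 (edgeR adjusted p from 0.626 to 0.997). The MAP kinase phosphatases, feedback inhibitors that are themselves early genes, had a median of 0.52, 8 of 10 being above 0, and 2 were called higher without LPS replicate 2. Without LPS replicate 3 their median was −0.03 and none was called. DUSP1 was at 35.6, 46.7 and 36.9 CPM in CON and at 94.6, 20.5 and 533 CPM in LPS (log2 fold change 2.45, edgeR adjusted p = 0.338), again with replicate 3 highest and replicate 2 lowest. DUSP2, DUSP8 and DUSP6 had log2 fold changes of 2.40, 0.39 and −0.30 (edgeR adjusted p = 0.30, 0.740 and 0.797). Those called without LPS replicate 2 were DUSP1 (2.99) and DUSP2 (2.89), with edgeR adjusted p = 0.0175 and 0.0333.

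Textbook AP-1 targets had a median log2 fold change of 0.84 over 19 tested of 27, 16 of them above 0. Without LPS replicate 2, 8 of 20 were called higher and 1 lower, and without LPS replicate 3 the list's median turned to −0.17 and only TIMP1 was called. Of those called higher without LPS replicate 2, MMP1 was at 0 in every CON library and passed the filter only through LPS libraries. TIMP1, which encodes an inhibitor of matrix metalloproteinases, was at 16.0, 16.7 and 32.2 CPM in CON and at 578, 175 and 2276 CPM in LPS (log2 fold change 5.54, SE 0.93, edgeR adjusted p = 0.0847). Its LPS libraries were all above its CON libraries, and it was called without LPS replicate 2 (6.05, edgeR adjusted p = 0.000962) as well as without LPS replicate 3 (4.13, edgeR adjusted p = 0.0210). VEGFA and HMOX1 had log2 fold changes of 0.43 and 0.16 (edgeR adjusted p = 0.625 and 0.906).

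Genes of the MYC network and its growth targets had a median log2 fold change of 0.65 over 28 tested, 20 above 0 and 8 below, and 5 of 28 were called higher without LPS replicate 2. Without LPS replicate 3 the median was 0.14 and none was called. NCL, EIF4A1, FBL and NOP56, which serve ribosome production and translation, had log2 fold changes of 0.64, 1.03, 1.19 and 0.75 (edgeR adjusted p = 0.562, 0.434, 0.338 and 0.643), and of these FBL was called without LPS replicate 2 (1.56, adjusted p = 0.0272). MYC itself was thus below CON in LPS replicates 1 and 2, while the list's median level relative to CON was 0.45 and −0.13 (log2) in those libraries and 1.35 in LPS replicate 3. The 6 tested genes of IER3 partners and ERK docking were split 3 above and 3 below 0 with a median of 0.11, which was 0.18 without LPS replicate 2 and −0.0036 without LPS replicate 3, none being called. Among them PPP2R1A, PPP2CA, ATP5IF1 and PPP2R5A had log2 fold changes of 0.53, 0.35, 0.57 and −0.46 (edgeR adjusted p = 0.520, 0.677, 0.543 and 0.669).

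**Figure D4:**
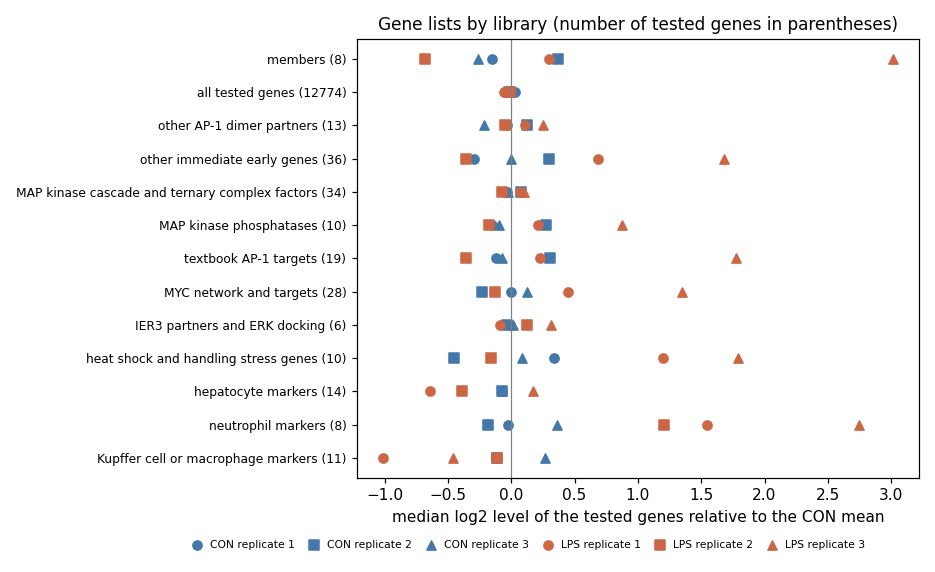
Median over the tested genes of each list of the log2 level relative to the CON mean (horizontal axis, log2(CPM + 0.5)), by library. For LPS replicates 1, 2 and 3 the members lie at 0.30, −0.68 and 3.01, and all tested genes lie between −0.05 and 0.03.

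The tested members had a median log2 level of −0.16, 0.37 and −0.27 in CON and of 0.30, −0.68 and 3.01 in LPS, counted from the CON mean. Several other measures also differed between these libraries, and their part in the result was not tested. Heat shock and handling stress genes, which respond to handling of tissue as well as to inflammation, had 10 of 10 tested log2 fold changes above 0 with a median of 1.03, and their median level was 1.20, −0.16 and 1.79 in LPS replicates 1, 2 and 3. HSP90AA1, HSPA5, HSPB1 and HSPA8 had log2 fold changes of 1.21, 0.93, 0.99 and 1.07 (edgeR adjusted p = 0.360, 0.440, 0.474 and 0.526). Without LPS replicate 2 the median was 1.44 and 5 of 10 were called higher, HSP90AA1 and HSPA8 among them (edgeR adjusted p = 0.0399 and 0.0415), and without LPS replicate 3 the median was 0.64 and none was called. Mitochondrial genes held 3.22%, 2.97% and 1.17% of the counts of LPS replicates 1, 2 and 3, and 1.45% to 2.75% in CON.

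Markers of cells other than hepatocytes were summed in the same way. Neutrophil markers, 11 of 19 with a row, summed to 23.4 to 36.1 CPM in CON and to 181, 92.1 and 329 CPM in LPS, 7 of 8 tested being above 0, and S100A8 was called higher (0.313 to 0.396 CPM in CON and 14.2, 5.07 and 25.7 CPM in LPS, log2 fold change 5.34, edgeR adjusted p = 0.0371). S100A8 kept its call without LPS replicate 2 or 3, whereas no gene at all was called higher when any CON library was left out. Of the neutrophil markers 6 of 10 were called higher without LPS replicate 2, and 2 of 7 without LPS replicate 3. S100A8 was under the minimum count of the filter in every CON library, and MMP8 was at 0 in each of them. Both were tested only through LPS libraries, where they are high, so their calls are not independent of the filter. Among LPS libraries the neutrophil sum was highest in replicate 3 and lowest in replicate 2, the order of the tested members other than EGR1, but LPS replicate 2 was above CON for it. Kupffer cell or macrophage markers were below 0 in 11 of 11 tested, with sums of 2011 to 3261 CPM in CON and 1376, 2316 and 1888 CPM in LPS, CD68 at 29.4 to 63.7 CPM in LPS and 61.1 to 76.7 in CON, and LYZ at 0 in every library. Of these 1 of 11 was called lower without LPS replicate 2. Red blood cell or platelet markers summed to 73.0 to 100.3 CPM in CON and 232, 91.0 and 329 CPM in LPS, mostly from HBB, at 52.5 to 60.0 and at 192, 72.6 and 246 CPM, which was called higher without LPS replicate 2 (edgeR adjusted p = 0.00679).

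Sums of the remaining marker lists follow. Hepatocyte markers summed to 85820 to 109200 CPM in CON and 77050, 76930 and 152900 CPM in LPS, with 6 of 14 above 0. Single markers differed in LPS replicate 3, where FGB was at 44960 CPM (8098 to 12720 in CON) and ALB at 19680 CPM (20310 to 38010 in CON). Without LPS replicate 2, 2 of 14 were called higher, FGB among them (edgeR adjusted p = 0.0436), and 0 lower. T or NK cell markers summed to 123 to 157 CPM in CON and 65.6, 123 and 146 CPM in LPS, CD3D lying at 4.14 to 10.6 CPM. Of these 1 of 9 was called lower without LPS replicate 2. B or plasma cell markers summed to 29.3 to 112 and 20.1 to 47.9 CPM, with CD79A at 2.95 to 6.33 CPM. Endothelial markers summed to 365 to 737 and 337 to 532 CPM, with PECAM1 at 34.3 to 61.8 CPM, and 2 of 10 were called lower without LPS replicate 2. Cholangiocyte or stellate markers summed to 951 to 1353 and 709 to 1488 CPM, with KRT7 at 3.13 to 5.74 CPM in CON and 8.29 to 19.8 CPM in LPS.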

How the data were processed

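Raw counts per Ensembl pig gene, with gene coordinates and length, were deposited by the authors for 6 input libraries. The labels name cutadapt 1.9.3 and HISAT2 without a version, and a directional library kit. Neither the counting program and its strand setting nor the pig genome build is stated in the sources used here (the builds that the processing notes do name are not of the pig). Sequences were not used here. The labels list 2 sequencing entries for each of CON replicates 1 and 2, which have 1 column each. The number of columns not mapped to a library was 0. No pair of libraries agreed within sampling noise (lowest chi-square 48.6 per gene). The immunoprecipitated libraries were not analysed here.

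The count table was fitted with edgeR 4.0.16 in R 4.3.3 (filterByExpr with a minimum count of 10, TMM, glmQLFit with robust settings, glmQLFTest), with p-values adjusted over all 12774 tested genes. The filter kept 8 members and left out FOSB. Standard errors were obtained as the absolute log2 fold change over the root of the F statistic. Levels relative to CON use log2(CPM + 0.5). TPM was computed from counts and the table's gene lengths, without TMM factors. The members, gene lists and tests were chosen with earlier results of these data known. Named genes are every member, any called gene of a pathway list (edgeR called none with all libraries), the 4 genes of each list with the highest mean TPM, the first marker of each marker list and the genes most like each member, and the values of some single genes that this rule names are left out. The libraries were compared as unpaired groups, and whether the replicate numbers pair them could not be settled. The alternatives tried were DESeq2 1.42.0, limma-voom (limma 3.58.1), total-count scaling, RLE factors, no filter or a stricter one (10 counts or more in each library), leaving out single libraries, and a block for the replicate number. Combining no filter or DESeq2 with leaving out LPS replicate 2 or 3 was added after the data were seen. The edgeR, DESeq2 and limma fits were tested on simulated data. Members with a DESeq2 p of NA were left as NA.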

Additional observations from a re-analysis of the deposited data

How the results depend on the processing

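With 3 libraries per group, a single-gene exact permutation test cannot go below p = 0.1, so calls rest on models that share information over genes. Genes called higher and lower, 7 and 0 with all libraries, were 8 and 1 with RLE factors, 11 and 1 scaled to total counts, 536 and 349 with no filter, 0 and 0 with at least 10 counts in every library, 275 and 141 with DESeq2, 2 and 0 with limma-voom, and 0 to 512 and 0 to 470 with 1 library left out. Members called higher, 0 with all libraries, were 6 with no filter, 1 with DESeq2, 0 to 2 with 1 library left out, 7 with no filter (4.05% of genes) and 5 with DESeq2 (5.57%) when LPS replicate 2 was also left out, and 1 member (EGR1, log2 fold change −1.75) was called lower with no filter and without LPS replicate 3 (1.22% of genes). The causes were not tested.

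With 1 library left out, log2 fold changes ranged from −0.14 to 3.14 for FOS, 0.12 to 2.80 for FOSL2, −0.040 to 2.27 for JUN, 1.51 to 2.70 for JUNB, 0.83 to 3.02 for ATF3, −1.73 to −0.19 for EGR1, −0.52 to 1.94 for IER3 and −1.07 to 1.06 for MYC. The changes of sign of FOS, JUN, IER3 and MYC came without LPS replicate 3. Their SEs in that fit were 0.45, 0.40, 0.43 and 0.39, and none of them was called. Also without LPS replicate 3, the values with no filter were −0.18 for FOS, −0.33 for FOSB, −0.074 for JUN, −0.55 for IER3 and −1.10 for MYC, and with DESeq2 −0.12, −0.37, −0.017, −0.51 and −1.05. With limma-voom the members' median was 1.15, with FOS at 1.45, ATF3 at 1.20 and MYC at −0.11. Correlations of deviations were −0.24, 0.22 and 0.03 between libraries of the same replicate number, and −0.25 to 0.22 between those of different numbers. With 3 libraries per group these values cannot settle whether the numbers pair the libraries. With the replicate number as a block, 42 genes were called higher and 9 lower, no member was called, the members' median was 1.01 and MYC was at −0.16.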
